A study of Saccharomyces cerevisiae with 15 samples.

Results

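The thioredoxin, glutathione and peroxide defence genes of Saccharomyces cerevisiae were followed across 15 2-colour DNA microarrays. A list of 35 genes was matched to the gene symbols given for the array probes. By symbol 28 matched as listed and 2 through an older name (GRX2 as TTR1 and CCS1 as LYS7), so 30 genes of 6253 genes or probes were measured, 1 probe each. PRX1, SRX1, GRX6, GRX7 and GRX8 carried no name among the probes and were not analysed here.

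Yeast removes peroxides through peroxidases whose electrons come from NADPH by way of thioredoxin or glutathione. The activator Yap1 is held in the nucleus once it is oxidised, a step in which the peroxidase Hyr1 acts as the sensor, and it switches on many of these genes, some together with the response regulator Skn7. Other genes of the set are also targets of Msn2 and Msn4, the activators of the general stress response, so the set joins genes that answer to oxidants with genes that answer to stress of many kinds.

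All strains were MATa derivatives of W303, and the labels do not give the number of clones or whether cultures were separate. The treatments lasted 20 minutes and each array set RNA of treated cells against RNA of mid-log cells of the same strain. Of the 15 arrays, 7 held wild-type cells (ACY044) under a single treatment, which was 0.4 mM H2O2, heat shock at 42 °C, 0.375 M KCl, 0.1% glucose, amino acid starvation, nitrogen starvation or 200 nM rapamycin. A further 3 held the wild type under combined treatments: nitrogen starvation with 0.375 M KCl, nitrogen with glucose starvation, and glucose starvation with 200 nM rapamycin (labelled total carbon starvation in the titles, so the glucose level differs from 0.1%). The Snf1 deletion strain (ACY509) was treated on 4 arrays (0.375 M KCl, 0.02% glucose, 0.1% glucose and nitrogen starvation), and 1 array compared ACY509 with ACY044 in mid-log growth. W303 strains are known to carry a mutant allele of YBP1, whose product assists Hyr1 in oxidising Yap1. The labels do not give the YBP1 genotype of these strains, and YBP1 was not analysed here.

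Each condition had 1 array, so a value has no replicate error of its own, and precision is limited by how many arrays there are. Each value is taken as the log2 of treated over mid-log signal, so 1 is 2-fold higher and -1 is 2-fold lower. Peroxide-treated cells were in the Cy3 channel, unlike the treated cells of the other arrays, and that array was turned. Dye and treatment therefore cannot be told apart for it. No condition was repeated with the dyes exchanged, so the same holds for the other arrays. On 6 arrays (the mid-log strain array, heat shock, KCl, rapamycin, and starvation for amino acids or nitrogen) 717 to 1256 spots were at exactly 0, which was taken as no value, and the peroxide array had 842 blanks. Of the 30 genes, 26 had a value on all 15 arrays. The exceptions were TSA2 and MXR1, listed at 0 on the mid-log strain array, GPX1, listed at 0 there and at heat shock, and OYE3, listed at 0 there and blank in peroxide. SNF1 was listed at 0 on the mid-log strain array and gave no check of the deletion.

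**Figure D1:**
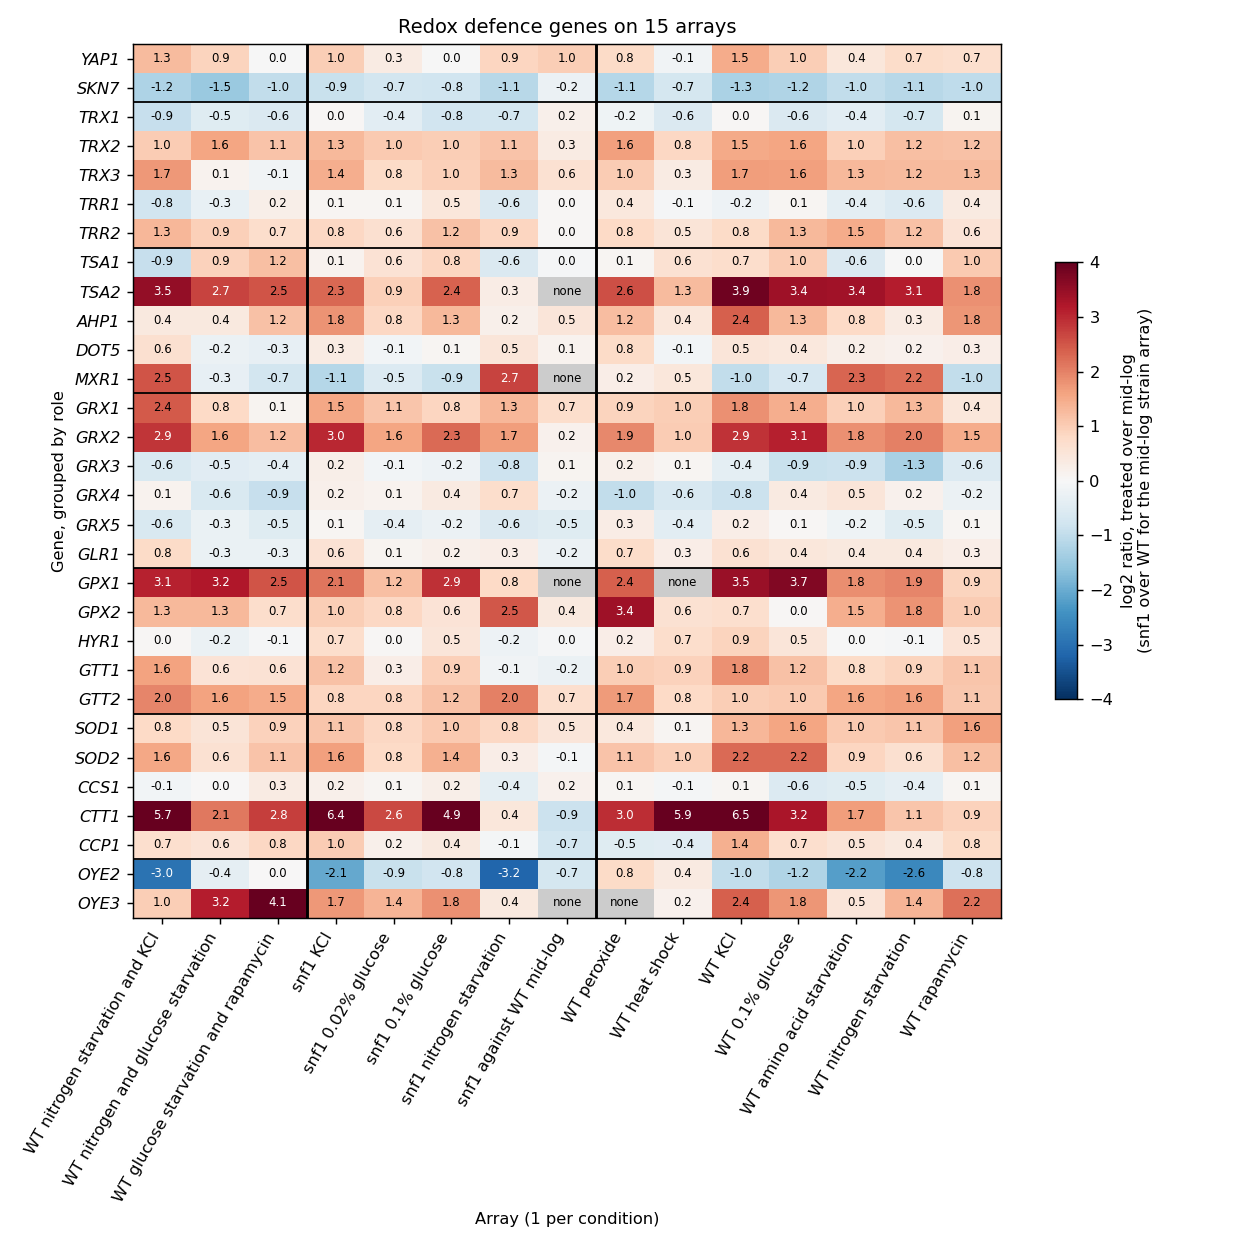
Log2 of treated over mid-log signal for the 30 genes (rows, grouped by role) on the 15 arrays (columns, 1 array each; grey marks no value). CTT1 and TSA2 are high under most treatments, with CTT1 at 6.48 in KCl, while SKN7 is below 0 on every array and OYE2 reaches -3.17 in snf1 cells without nitrogen.

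The first question was which of these genes moved in one direction over the 7 single treatments of wild-type cells. Genes of the thioredoxin and glutathione systems mostly rose, and in several families 1 isozyme gene rose while another did not pass the test. Of the 28 genes measured on all 7 arrays, 15 rose and 2 fell by limma (Benjamini-Hochberg adjusted p under 0.05 over 4866 genes), against 23.1% of all genes tested called higher and 27.8% called lower. The members' median coefficient was 0.57, against -0.04 for all genes. The members were chosen with earlier results of these data known, so this comparison with all genes is a description and not independent support. The spread in this test is that between treatments, and whether arrays shared a mid-log culture is not given in the labels, so the arrays may not be independent.

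On single arrays, which have no test, the share of the set at least 2-fold higher was largest for 0.1% glucose and smallest at heat shock. In peroxide 10 of 29 genes were at least 2-fold higher, against 9.97% of all genes. At heat shock 3 of 29 were, TSA2, GRX2 and CTT1, against 16% of all genes, and with that array centred on its median the count was 6, against 935 of 5197 genes. The set's share was below that of all genes on the values as deposited and slightly above it after centring. In KCl 14 of 30 were, against 13.2% of all genes. In 0.1% glucose 15 of 30 were, against 14.7%. Amino acid starvation gave 10 of 30, against 13.4%, nitrogen starvation 13 of 30, against 14.7%, and rapamycin 12 of 30, against 11.1%. Few genes were at least 2-fold lower: 1 in peroxide (12.3% of all genes), 0 at heat shock (18.4%), 2 in KCl (15.6%), 2 in 0.1% glucose (19.1%), 2 in amino acid starvation (14.6%), 3 in nitrogen starvation (14.6%) and 1 with rapamycin (11.5%).

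The regulators moved apart. YAP1 was at 0.78 in peroxide, -0.14 at heat shock, 1.47 in KCl, 0.98 in 0.1% glucose, 0.44 in amino acid starvation, 0.73 in nitrogen starvation and 0.67 with rapamycin. It was above 0 on 6 of 7 arrays and rose (coefficient 0.70, SE 0.182, adjusted p = 0.00978 by limma). SKN7 was at -1.14 in peroxide, -0.71 at heat shock, -1.27 in KCl, -1.20 in 0.1% glucose, -1.0 in amino acid starvation, -1.12 in nitrogen starvation and -1.03 with rapamycin. All 7 arrays lay within 0.56 of each other, and SKN7 fell (coefficient -1.07, SE 0.120, adjusted p = 0.000155 by limma). It was at -1.50 in nitrogen with glucose starvation, the lowest of the 15 arrays, and at -0.22 on the mid-log strain array.

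In the thioredoxin system, the cytosolic thioredoxin gene TRX2 and the mitochondrial pair TRX3 and TRR2 rose, while the cytosolic genes TRX1 and TRR1 did not pass the test. TRX2 was at 1.63 in peroxide, 0.83 at heat shock, 1.5 in KCl, 1.57 in 0.1% glucose, 0.96 in amino acid starvation, 1.20 in nitrogen starvation and 1.18 with rapamycin. These 7 values spanned 0.80, with heat shock lowest and peroxide highest (coefficient 1.27, SE 0.142, adjusted p = 0.000148 by limma). TRX1, which encodes the other cytosolic thioredoxin, lay between -0.69 in nitrogen starvation and 0.12 with rapamycin. TRR1, the cytosolic thioredoxin reductase that keeps both reduced, was at 0.42 in peroxide, -0.06 at heat shock, -0.21 in KCl, 0.09 in 0.1% glucose, -0.40 in amino acid starvation, -0.56 in nitrogen starvation and 0.35 with rapamycin. Peroxide gave its highest value, 0.07 above the next. TRX3 (coefficient 1.21) lay between 0.34 at heat shock and 1.66 in KCl, and TRR2, its mitochondrial reductase (coefficient 0.94), between 0.50 at heat shock and 1.49 in amino acid starvation.

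Among the peroxiredoxins, the thiol peroxidases that thioredoxin reduces, TSA2 and AHP1 rose. TSA2, a cytosolic isozyme of the abundant Tsa1, was at 2.58 in peroxide, 1.28 at heat shock, 3.90 in KCl, 3.40 in 0.1% glucose, 3.36 in amino acid starvation, 3.13 in nitrogen starvation and 1.84 with rapamycin. It was at least 2-fold higher on all 7 arrays, with 4 arrays above peroxide (coefficient 2.78, SE 0.30, adjusted p = 0.000128 by limma). TSA1 itself lay between -0.58 in amino acid starvation and 1.04 with rapamycin (coefficient 0.41, adjusted p = 0.131). AHP1, an alkyl hydroperoxide reductase, ran from 0.33 in nitrogen starvation to 2.40 in KCl (coefficient 1.18, adjusted p = 0.00322). DOT5, a nuclear peroxiredoxin, was highest in peroxide at 0.76 and between -0.12 and 0.48 on the other 6 arrays. MXR1, which reduces oxidised methionine, had values of 2.33 in amino acid starvation and 2.20 in nitrogen starvation and lay between -1.0 and 0.46 on the other 5 arrays.

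The measured glutaredoxins split by type, with GRX6, GRX7 and GRX8 not analysed. The dithiol glutaredoxin genes GRX1 and GRX2 rose and the monothiol genes GRX3, GRX4 and GRX5, which act in iron regulation and iron-sulphur cluster assembly, did not. GRX2 was at 1.93 in peroxide, 1.03 at heat shock, 2.90 in KCl, 3.11 in 0.1% glucose, 1.84 in amino acid starvation, 2.03 in nitrogen starvation and 1.49 with rapamycin. It joined TSA2 as the other gene at least 2-fold higher on every single-treatment array (coefficient 2.05, SE 0.245, adjusted p = 0.000199 by limma). GRX1 lay between 0.45 with rapamycin and 1.82 in KCl (coefficient 1.12, adjusted p = 0.000656). GRX3 fell at the edge of the threshold (coefficient -0.53, adjusted p = 0.0442), and it lost the call on leaving out any of 5 arrays in turn (rapamycin, nitrogen starvation, amino acid starvation, 0.1% glucose or KCl, adjusted p 0.0741 to 0.12) and on centring the arrays (adjusted p = 0.0677). GRX4 lay between -0.97 and 0.47 and GRX5 between -0.48 and 0.30. GLR1, the glutathione reductase, rose by little, with values of 0.27 to 0.72 (coefficient 0.45, SE 0.118, adjusted p = 0.0113).

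The glutathione peroxidase genes differed in which treatment gave their highest value. GPX2 was at 3.38 in peroxide, 0.62 at heat shock, 0.66 in KCl, 0.05 in 0.1% glucose, 1.46 in amino acid starvation, 1.81 in nitrogen starvation and 1.01 with rapamycin. Peroxide stood 1.57 above the next highest, nitrogen starvation, and the gene rose over the 7 arrays (coefficient 1.28, adjusted p = 0.0115 by limma). GPX1 was at 2.39 in peroxide, 3.46 in KCl, 3.71 in 0.1% glucose, 1.85 in amino acid starvation, 1.94 in nitrogen starvation and 0.88 with rapamycin. Without a value at heat shock it was not tested over all 7 arrays, and over 6 its coefficient was 2.37 (SE 0.353, adjusted p = 0.000836 by limma with genes measured on at least 5 of 7 arrays). Heat shock was listed at exactly 0 for GPX1, so this coefficient rests only on arrays where the spot gave a value. In 0.1% glucose GPX1 and GPX2 thus lay at opposite ends of the family, at 3.71 and 0.05. HYR1, the sensor peroxidase, lay between -0.06 and 0.90 (coefficient 0.40, adjusted p = 0.0505). The glutathione transferase genes GTT1 (coefficient 1.09, adjusted p = 0.000389) and GTT2 (coefficient 1.26, adjusted p = 0.000214) rose, GTT1 with values of 0.76 to 1.82 and GTT2 with values of 0.81 to 1.69.

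CTT1, the cytosolic catalase, ranged most widely. It was at 2.96 in peroxide, 5.94 at heat shock, 6.48 in KCl, 3.25 in 0.1% glucose, 1.66 in amino acid starvation, 1.10 in nitrogen starvation and 0.91 with rapamycin. Values in KCl and at heat shock were above that in peroxide, as was 0.1% glucose (coefficient 3.19, SE 0.680, adjusted p = 0.00376 by limma). SOD1, the cytosolic copper-zinc superoxide dismutase, was at 0.42 in peroxide, 0.07 at heat shock, 1.33 in KCl, 1.57 in 0.1% glucose, 1.05 in amino acid starvation, 1.12 in nitrogen starvation and 1.63 with rapamycin. Its lowest values were at heat shock and in peroxide (coefficient 1.03, SE 0.205, adjusted p = 0.00266). SOD2, the mitochondrial manganese enzyme, was highest at 2.25 in both KCl and 0.1% glucose (coefficient 1.33, adjusted p = 0.00111), and CCS1, the copper chaperone of Sod1, stayed between -0.55 and 0.09. CCP1, the mitochondrial cytochrome c peroxidase, was at -0.50 in peroxide, its lowest value, and at 1.42 in KCl, its highest.

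The NADPH oxidoreductases called old yellow enzymes had opposite signs on most of the 6 single-treatment arrays that measured both. OYE2 was at 0.75 in peroxide, 0.36 at heat shock, -0.99 in KCl, -1.20 in 0.1% glucose, -2.19 in amino acid starvation, -2.58 in nitrogen starvation and -0.82 with rapamycin. Of the 7 arrays it was above 0 in peroxide and at heat shock (coefficient -0.95, adjusted p = 0.0591). OYE3 was at 0.18 at heat shock, 2.39 in KCl, 1.78 in 0.1% glucose, 0.47 in amino acid starvation, 1.35 in nitrogen starvation and 2.21 with rapamycin, and was blank in peroxide (coefficient 1.40, SE 0.309, adjusted p = 0.00569 by limma with genes measured on at least 5 of 7 arrays). On 5 of the 6 arrays that measured both, the exception being heat shock, OYE3 was above 0 and OYE2 below 0. Near-identical sequences can share signal on probes, and which isozyme pairs of the set are affected was not tested.

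**Figure D2:**
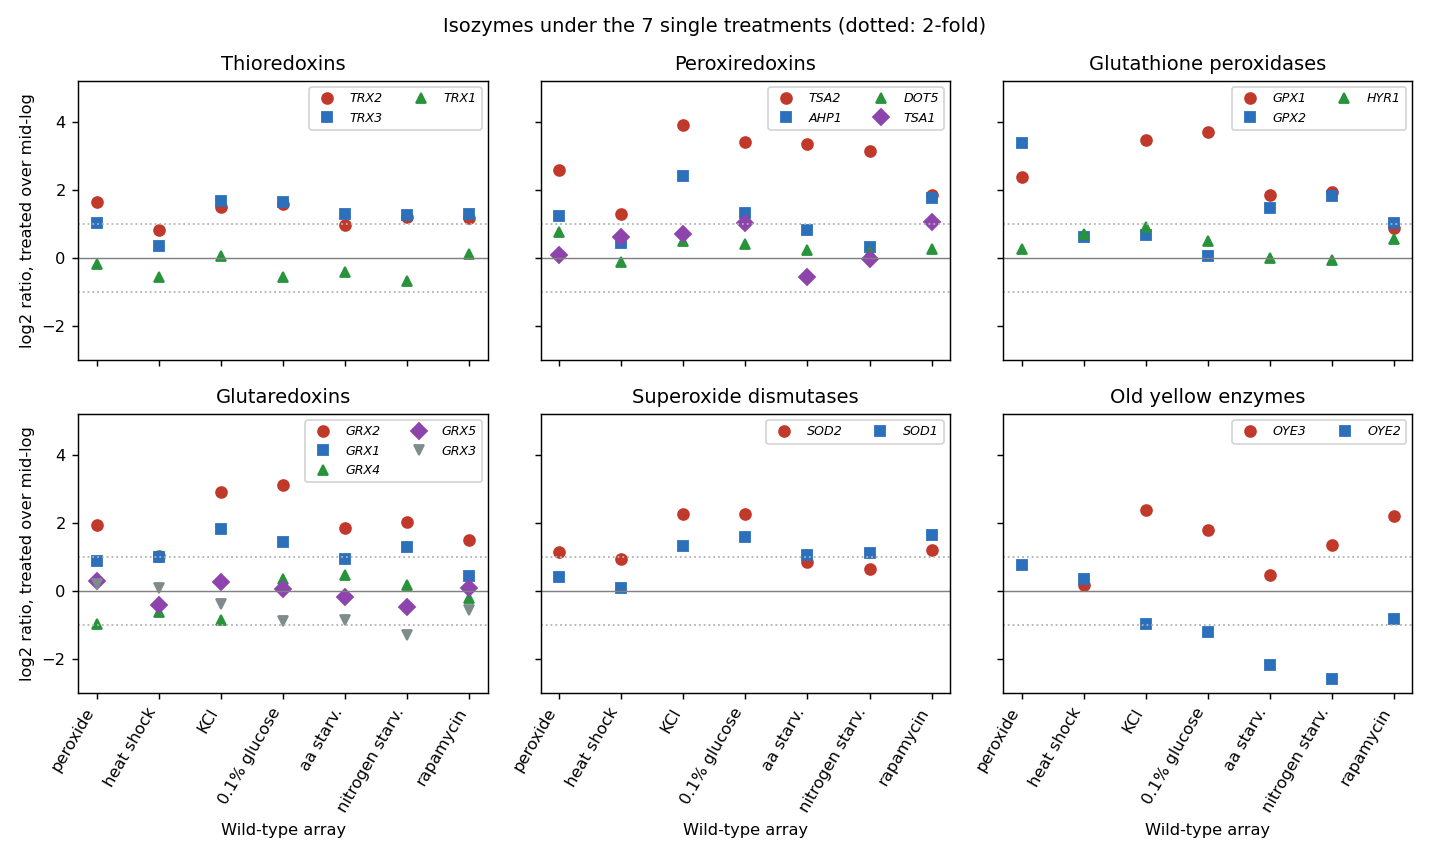
Log2 of treated over mid-log signal (vertical axis) on the 7 wild-type arrays of single treatments (horizontal axis), 1 panel per enzyme family and 1 symbol per gene, with 2-fold changes dotted. TRX2 lies above TRX1 and TSA2 above TSA1 on every array, GPX2 is highest in peroxide at 3.38 and near 0 in 0.1% glucose, and OYE2 is at -2.58 in nitrogen starvation where OYE3 is at 1.35.

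The second question was which genes were particular to peroxide and which belonged to stress of many kinds. A gene was called broad if it was at least 2-fold higher on at least 4 of the other 6 single-treatment arrays, and peroxide-led if it was at least 2-fold higher in peroxide and highest there. Of the 28 genes measured on all 7 arrays, 3 were peroxide-led, GPX2, TRX2 and GTT2, against 2.98% of all genes. TRX2 exceeded its next highest array by 0.06 and GTT2 by 0.04, so that of the 3 only GPX2 stood apart by at least 1. Broad genes numbered 7 (TRX2, TRX3, TSA2, GRX2, GTT2, SOD1 and CTT1), against 8.51% of all genes, and with at least 3 arrays in place of 4 there were 13. No gene of the set was at least 2-fold higher in peroxide and on none of the other 6 arrays, against 1.36% of all genes, and at 1.5-fold there were 2. For the limits of 3 arrays and 1.5-fold the share of all genes is not given here. The 10 genes at least 2-fold higher in peroxide were GPX2, CTT1, TSA2, GPX1, GRX2, GTT2, TRX2, AHP1, SOD2 and TRX3, and each of them was also at least 2-fold higher on at least 3 of the other arrays. GTT1 lay just under the threshold at 0.99 and TRX3 just over it at 1.02.

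The difference between peroxide and the other 6 arrays was tested with limma, where the lone peroxide array is assumed to vary like the others. On simulated ratios this fit recovered none of the 200 genes shifted by 1 on the log2 scale. The lack of a call therefore does not show that a 2-fold difference was absent. No gene of the set was called higher (0.0206% of all genes) or lower (0.0206% of all genes). At an unadjusted threshold of 0.05, 1 gene of the set was higher (4.25% of all genes) and 0 were lower (3.66%). That gene was GPX2, at 3.38 in peroxide against a mean of 0.94 on the other 6 arrays (difference 2.45, SE 0.610, unadjusted p = 0.00357, adjusted p = 0.38 by limma). OYE2 was at 0.75 in peroxide against a mean of -1.24 (difference 1.99, 95% interval -0.14 to 4.11), higher in peroxide than on each of the other arrays. TRR1 was at 0.42 against -0.13 (difference 0.55, 95% interval -0.39 to 1.49) and TSA2 at 2.58 against 2.82 (difference -0.24, 95% interval -2.31 to 1.84). CCP1, at -0.50 against 0.55, and GRX4, at -0.97 against -0.12, were lower in peroxide than on any of the other 6 arrays and did not pass (adjusted p = 0.709 and 0.739). Over the 28 genes the median difference was -0.10, against 0.11 for all genes.

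**Figure D3:**
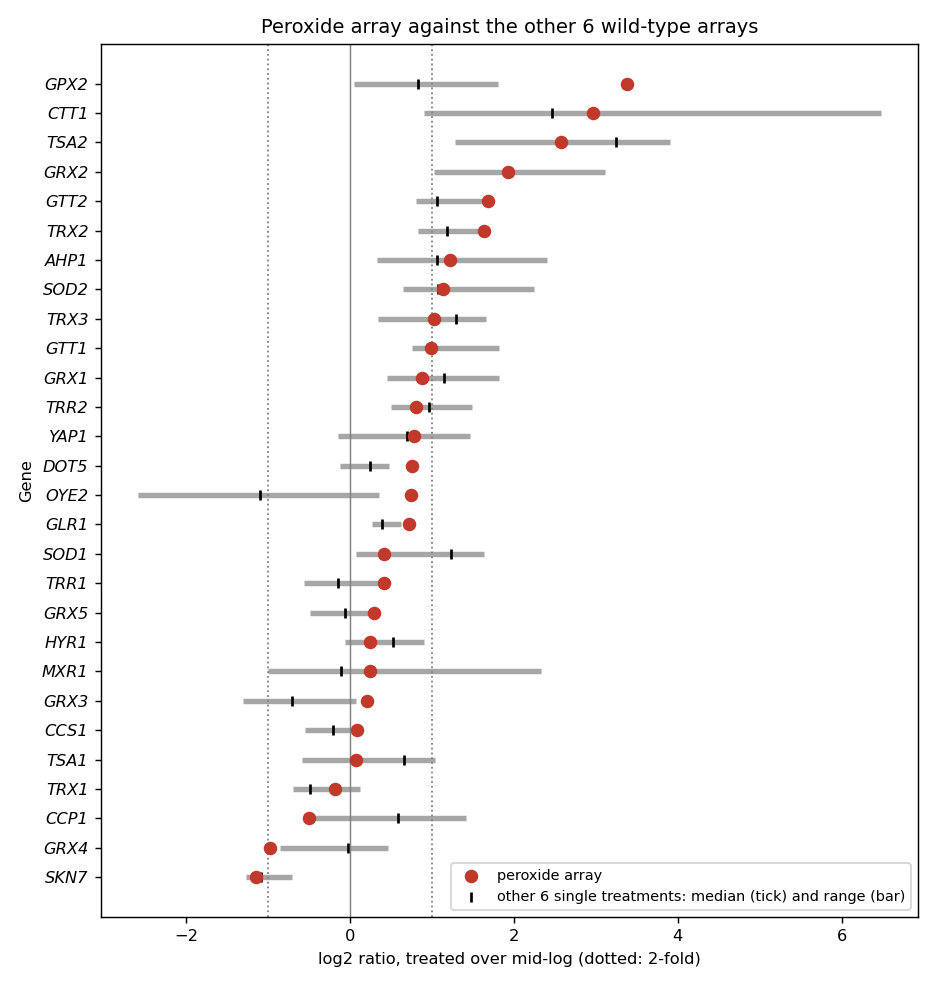
Log2 ratio of treated over mid-log cells in peroxide (red points) for the 28 genes measured on all 7 wild-type arrays, beside the median (tick) and range (grey bar) of the other 6 single treatments, with 2-fold changes dotted. GPX2 lies 1.57 beyond its bar, OYE2 0.39 beyond, and CTT1 and TSA2 lie inside theirs.

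Stress and starvation were compared next, as 3 arrays (peroxide, heat shock and KCl) against 3 (0.1% glucose, amino acid starvation and nitrogen starvation). On simulated ratios this fit too recovered 0 of 200 genes shifted by 1 on the log2 scale, so a 2-fold difference could go uncalled. By limma 0 of 28 genes were called higher and 0 lower, as for all genes (0% and 0%), and at an unadjusted threshold of 0.05 there were 3 higher (6% of all genes) and 2 lower (3.86%). The 3 were OYE2, CTT1 and GRX3. OYE2 averaged 0.04 under stress and -1.99 in starvation without overlap (difference 2.03, 95% interval 0.76 to 3.30, adjusted p = 0.402). CTT1 averaged 5.13 under stress and 2.00 in starvation (difference 3.12, adjusted p = 0.431), and the groups overlapped, with peroxide at 2.96 below 0.1% glucose at 3.25. GRX3 and GRX4, closely related monothiol glutaredoxins, differed in opposite directions. GRX3 averaged -0.04 under stress and -1.02 in starvation (difference 0.98, adjusted p = 0.431), and GRX4 averaged -0.82 under stress and 0.33 in starvation (difference -1.15, adjusted p = 0.383), neither with overlap. TRR2, at 0.69 under stress against 1.32 in starvation, was the other gene that was lower (difference -0.63, adjusted p = 0.506).

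The next comparison was between strains. Snf1, the budding yeast counterpart of AMPK, lets cells use other carbon sources when glucose runs out. In mid-log growth none of the 26 genes with a value differed by 2-fold between snf1 and wild-type cells, against 2.14% of all genes higher and 1.62% lower. YAP1 was highest there at 0.97 and CTT1 lowest at -0.87. Treated snf1 cells had 13 of 30 genes at least 2-fold higher in KCl (12.3% of all genes), 6 in 0.02% glucose (7.53%), 10 in 0.1% glucose (17.2%) and 7 in nitrogen starvation (14.4%). At least 2-fold lower were 2 in KCl (13.4%), 0 in 0.02% glucose (7.53%), 0 in 0.1% glucose (13.3%) and 2 in nitrogen starvation (18.9%).

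Over the 3 treatments given to both strains, limma with treatment as a block called 0 of 30 genes higher and 0 lower in snf1 cells, against 0% and 0.0185% of all genes. On simulated ratios this fit recovered 0 of 200 genes shifted by 1 on the log2 scale, so a 2-fold difference could go uncalled. Wild-type KCl and nitrogen starvation were among the arrays with many zeros, while the snf1 arrays kept ratios for dim spots. Spot processing and strain therefore cannot be told apart in those treatments, for any gene compared here. At an unadjusted threshold of 0.05 there were 2 higher, GRX3 and GPX2, against 6.44% of all genes, and 4 lower, TSA2, GPX1, SOD2 and GTT1, against 7.22%. TSA2 was at 2.30 in KCl, 2.35 in 0.1% glucose and 0.29 in nitrogen starvation in snf1 cells, against 3.90, 3.40 and 3.13 in wild-type cells, without overlap (difference -1.83, SE 0.353, unadjusted p = 0.00189, adjusted p = 0.232 by limma). GPX1 was at 2.13, 2.93 and 0.81 in snf1 cells, against 3.46, 3.71 and 1.94 in wild-type cells, in the same order of treatments (difference -1.08, SE 0.204, adjusted p = 0.232). Both were lower in snf1 cells in 3 of 3 treatments.

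TSA2 and GPX1 are among the 4 genes without a value on the mid-log strain array. The treated snf1 arrays kept a ratio for dim spots, and 39 control spots that were at 0 on all 6 arrays with many zeros show which ratios dim spots took. They had medians of 0.32 in KCl, 2.21 in 0.1% glucose and -1.40 in nitrogen starvation in snf1 cells. TSA2 and GPX1 lay within the range of these spots on all 3 snf1 arrays (-4.83 to 3.91, -1.30 to 3.35 and -3.39 to 0.98), while in wild-type cells in 0.1% glucose, the array of the 3 that kept dim spots, both lay above it (-3.39 to 2.16). The part of dim signal in the strain difference was not tested.

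SOD2 was at 1.65 in KCl, 1.43 in 0.1% glucose and 0.28 in nitrogen starvation in snf1 cells, against 2.25, 2.25 and 0.65 in wild-type cells (difference -0.60, adjusted p = 0.331). GTT1 was at 1.18, 0.94 and -0.13 in snf1 cells, against 1.82, 1.18 and 0.88 in wild-type cells (difference -0.63, adjusted p = 0.345). GPX2 ran the other way, at 0.99, 0.55 and 2.47 in snf1 cells against 0.66, 0.05 and 1.81 in wild-type cells (difference 0.50, adjusted p = 0.354), as did GRX3, at 0.23, -0.20 and -0.83 against -0.40, -0.89 and -1.30 (difference 0.60, adjusted p = 0.331). CTT1 was at 6.38 in KCl, 4.88 in 0.1% glucose and 0.45 in nitrogen starvation in snf1 cells, against 6.48, 3.25 and 1.10 in wild-type cells (difference 0.29, 95% interval -0.76 to 1.34). Its values were higher in snf1 cells in 0.1% glucose and lower in nitrogen starvation. Each value is relative to mid-log cells of the same strain, and CTT1 was at -0.87 in snf1 against wild-type cells in mid-log growth. The part of that starting level in the differences was not tested.

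**Figure D4:**
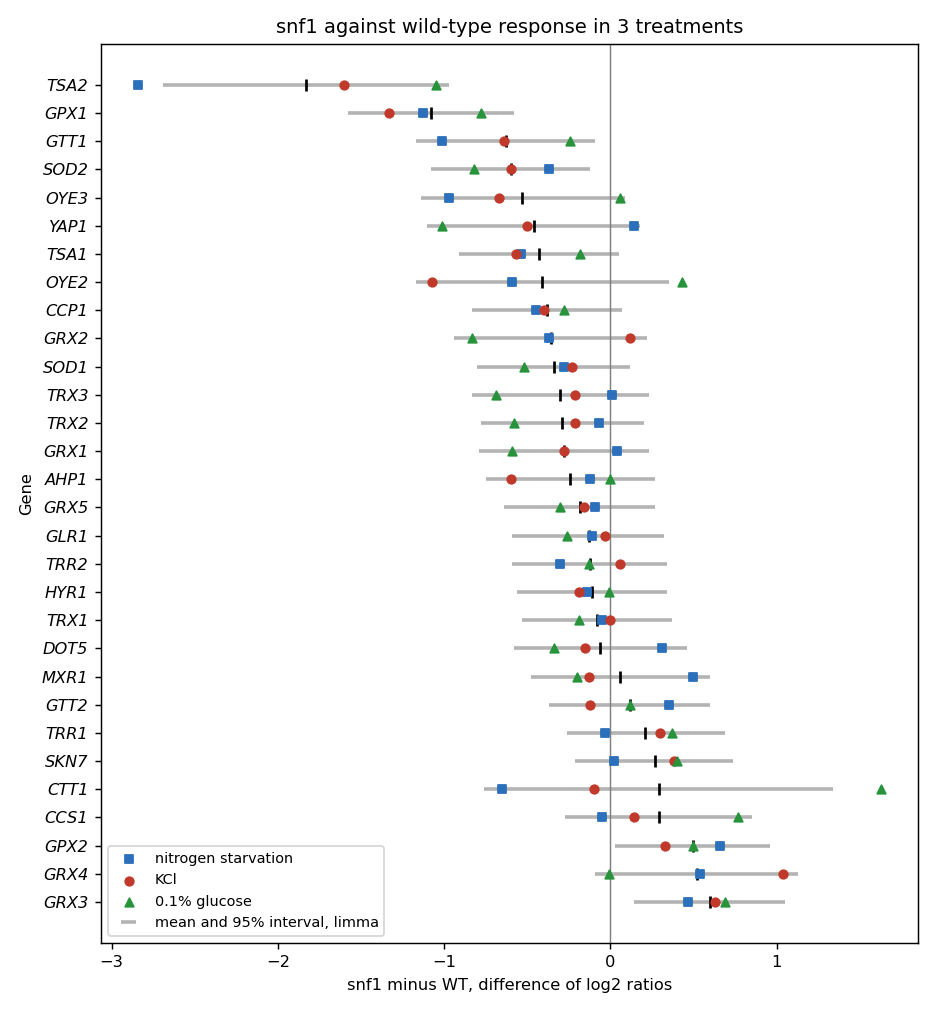
Difference between snf1 and wild-type cells in the log2 ratio of treated over mid-log cells (horizontal axis) for the 30 genes in KCl, 0.1% glucose and nitrogen starvation (symbols), with the limma mean (tick) and its 95% interval (bar). TSA2 and GPX1 lie below 0 in all 3 treatments, GRX3 and GPX2 above 0 in all 3, and no gene passes the adjusted threshold.

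Between 0.02% and 0.1% glucose in snf1 cells, CTT1 was at 2.65 and 4.88, GPX1 at 1.20 and 2.93, and TSA2 at 0.94 and 2.35. These were 1 array each and give no test. The dim control spots had a median of -0.61 in 0.02% glucose (range -2.26 to 1.41) and 2.21 in 0.1% glucose. GPX1 and TSA2 lay within the range of these spots on both arrays and CTT1 above it on both, and the part of dim signal in these differences was not tested.

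The last comparison set combined treatments beside the single ones. With nitrogen starvation and KCl together, 14 of 30 genes were at least 2-fold higher (18.4% of all genes) and 2 lower (23%). CTT1 was at 5.73, against 1.10 in nitrogen starvation and 6.48 in KCl, and so lay near the KCl value. MXR1 was at 2.51, against 2.20 in nitrogen starvation and -1.0 in KCl, and OYE2 at -2.95, against -2.58 and -0.99, so that both lay near the value in nitrogen starvation. AHP1 was likewise at 0.38, against 0.33 in nitrogen starvation and 2.40 in KCl. GRX1, at 2.44, was above both nitrogen starvation (1.30) and KCl (1.82). Relative to nitrogen starvation 3 genes of the set were at least 2-fold higher (4.89% of all genes) and 0 lower (9.81%), and relative to KCl 1 was higher (7.27%) and 4 lower (10.5%).

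With nitrogen and glucose starvation together, 8 of 30 genes were at least 2-fold higher (16.3% of all genes) and 1 lower (18.1%). MXR1 was at -0.34, against 2.20 in nitrogen starvation and -0.68 in 0.1% glucose, and OYE2 at -0.35, against -2.58 and -1.20. TRX3 was at 0.14, against 1.25 in nitrogen starvation and 1.64 in 0.1% glucose, below both. OYE3 was at 3.15, against 1.35 and 1.78, above both. MXR1 lay within the range of the dim control spots on the combined array (-2.10 to 2.68) and in 0.1% glucose (-3.39 to 2.16). OYE3 lay within it in 0.1% glucose and above it on the combined array. The part of dim signal in these differences was not tested. Relative to nitrogen starvation 4 genes were at least 2-fold higher (13.6% of all genes) and 2 lower (12.4%), and relative to 0.1% glucose 2 were higher (11.5%) and 5 lower (7.63%), the 5 being TRX3, GRX2, SOD1, SOD2 and CTT1.

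Glucose starvation with rapamycin gave 10 of 30 genes at least 2-fold higher (13.1% of all genes) and 0 lower (15.3%). OYE3 was at 4.06, against 1.78 in 0.1% glucose and 2.21 with rapamycin, its highest value on any array. It lay above the range of the dim control spots there (-1.81 to 2.06) and within that range in 0.1% glucose (-3.39 to 2.16). TRX3 was at -0.13, against 1.64 and 1.28, and GRX1 at 0.10, against 1.44 and 0.45. Relative to rapamycin 3 genes were at least 2-fold higher (8.19% of all genes) and 1 lower (6.81%), and relative to 0.1% glucose 2 were higher (11.9%) and 7 lower (9.05%), the 7 being YAP1, TRX3, GRX1, GRX2, GRX4, GPX1 and SOD2. On both arrays that joined glucose starvation with another treatment, TRX3, DOT5, GRX1, GRX2, GRX4, GLR1, HYR1, GTT1, SOD1 and SOD2 were below both single treatments, by any amount. GRX3, CCS1, OYE2 and OYE3 were above both. The share of all genes with either pattern was not computed, so neither list is read as a trait of the set. SOD2 differed by only -0.04 from nitrogen starvation and -0.05 from rapamycin. Both combined arrays had a median of -0.15 over all genes, and their glucose level differs from 0.1%.

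**Figure D5:**
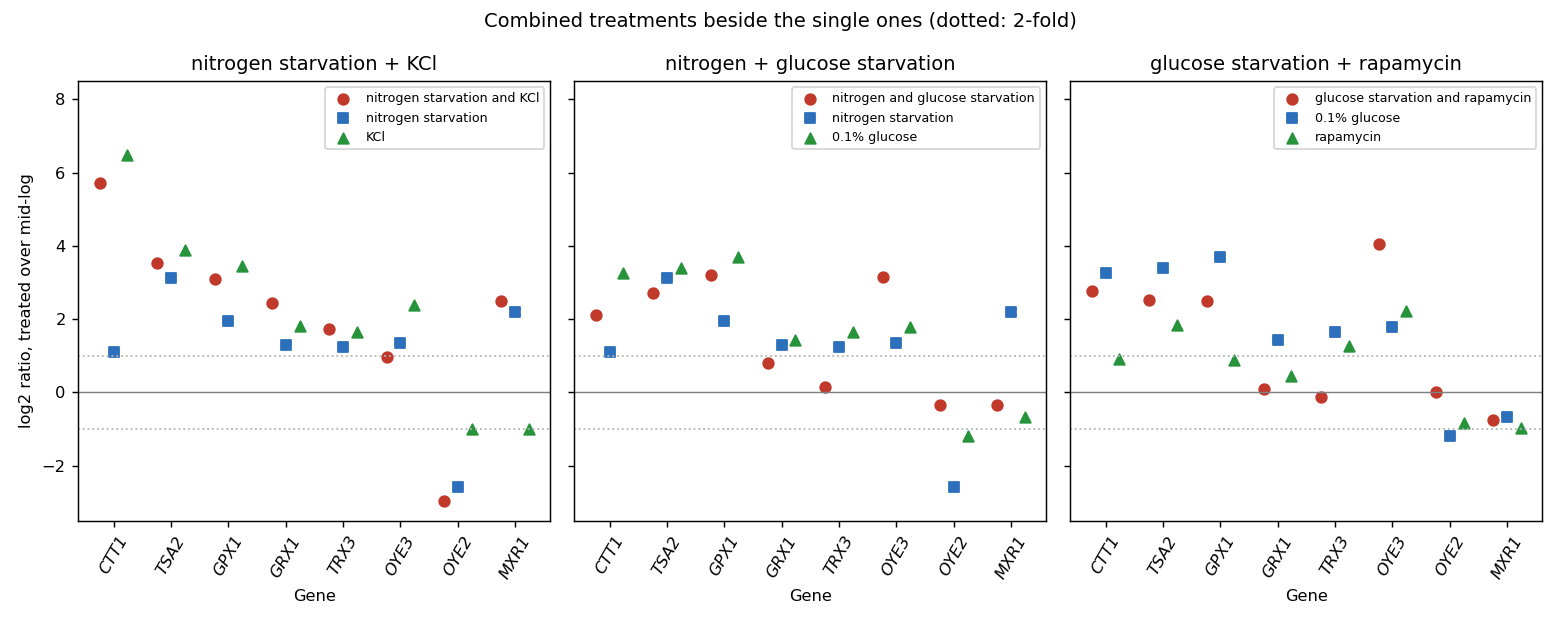
Log2 of treated over mid-log signal (vertical axis) for 8 genes under each combined treatment (red circles) and its single treatments (squares and triangles), 1 array each, with 2-fold changes dotted. CTT1 under nitrogen starvation with KCl is at 5.73, near KCl alone, MXR1 there is at 2.51, near nitrogen starvation alone, and OYE3 reaches 4.06 in glucose starvation with rapamycin.

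Other genes of the pathway were read from a list of 45, of which 33 were named on the arrays and 32 had a value on all 7 single-treatment arrays. Over the 7 arrays 13 rose and 3 fell by limma, against 23.1% of all genes higher and 27.8% lower, with a median of 0.49. Shares such as 2 of 7 or 3 of 10 in the groups that follow lie near that background. Among genes that supply NADPH, 3 of 10 rose, the 6-phosphogluconate dehydrogenase gene GND2 (coefficient 2.70), IDP2 (0.94) and the glucose-6-phosphate dehydrogenase gene ZWF1 (0.61), and 1 fell, the transketolase gene TKL1 (-1.25). GND1, the major isozyme of Gnd2, lay between -1.74 and 0.42 (adjusted p = 0.0719). Of 7 genes for glutathione synthesis, transport and use 4 rose, GLO1 (1.34), ECM38 (1.31), GLO4 (0.94) and GLO2 (0.79), while GSH1 and GSH2 of glutathione synthesis did not pass (0.44 and -0.27). Of 8 other redox enzyme genes 4 rose, the peroxisomal catalase gene CTA1 (1.70), PST2 (0.75), OXR1 (0.75) and YCP4 (0.55), and 1 fell, ERV1 (-0.57). Of 7 genes of the Yap1 pathway and other regulators 2 rose, CAD1 (0.70), which encodes a close relative of Yap1, and the multidrug transporter gene FLR1 (0.65), and 1 fell, the vacuolar transporter gene YCF1 (-0.38). None of the 32 was called in the peroxide or the stress comparison, or of 33 in the strain comparison, by limma. At an unadjusted threshold of 0.05, 2 were higher (6% of all genes) and 3 lower (3.86%) under stress, and 3 lower in snf1 cells (7.22%). For peroxide, CAD1, LOT6 and ERV1 were picked from the 32 for being higher at that unadjusted threshold. With 1 peroxide array they are given as values only and are not read as particular to peroxide. CAD1 was at 1.5 in peroxide against a mean of 0.57 on the other 6 arrays (difference 0.94). LOT6, a quinone reductase gene, was at 1.38 against -0.02 (difference 1.40), and ERV1 at 0.50 against -0.75 (difference 1.25). Differences ran the other way for ALD6 (-2.17) and GND2 (-2.10), among others.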

How the data were processed

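The deposited table gave, for each probe, the authors' log2 ratio of Cy5 over Cy3. No source used here names the base, and 2 was taken; as log10 the extremes, -7.18 and 9.47, would exceed a scanner's range. Background correction, normalization and spot filters: not given in the sources used here. Columns left unused numbered 0. Of 6256 gene probes, 4075 had 1 symbol, 0 had several and 2181 had none, and 61 control spots were left out. For 125 probes an older symbol was replaced through a unique synonym, and probes of 1 gene were averaged. As deposited, the peroxide array correlated with the other treatment arrays at -0.671 to -0.381 across genes, and its sign was turned by its dye labels. An exact 0 on arrays with more than 500 zeros was taken as no value. Tests used limma 3.58.1 in R 4.3.3 (lmFit and eBayes on each gene with a value on every array of the fit, Benjamini-Hochberg adjustment over all such genes, threshold 0.05), after checks on simulated data. Values were described in full for genes in a class, those past an unadjusted threshold in the peroxide or strain fit, isozymes set beside them, YAP1, SKN7, TRR1 and SOD1, and for the rest by range. The members and lists were chosen with earlier results of these data known. Alternatives were zeros kept as 0, median centring, genes with a value on all 15 arrays, trended and robust eBayes, no treatment block, leaving out each array, 1.5-fold and other class limits.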

Additional observations from a re-analysis of the deposited data

How the results depend on the processing

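Over all alternatives run for the 17 genes called in the common response, 197 of 203 values kept direction and call, 6 lost the call, all for GRX3, and 0 turned. The count that fell was 1 with arrays centred, and 1 to 3 leaving out each array in turn. The count that rose was 15 to 17 leaving out each array. The peroxide, stress and strain fits called none of the set under each alternative run. With 1 array against at most 6 in peroxide, and at most 3 against 3 in the others, that says nothing about stability. Over all genes the strain fit called 16 lower with arrays centred and 14 higher and 31 lower without the nitrogen starvation pair, against 0 and 1. The stress fit called 5 higher and 45 lower without 0.1% glucose, against 0 and 0. The peroxide fit called 2 lower without heat shock, against 1, and the smallest count in either direction was 0. The strain fit paired arrays by treatment, and without that block it also called 0 of the set. Arrays whose median lay beyond 0.1 from 0 were 0.1% glucose (-0.13), nitrogen with glucose starvation (-0.15) and glucose starvation with rapamycin (-0.15). With arrays centred, genes at least 2-fold lower numbered 0 with rapamycin (565 of 5239 genes), 1 in amino acid starvation (719 of 5491) and 1 in KCl (786 of 5517). Those higher at heat shock numbered 6 (935 of 5197), and those lower in nitrogen with glucose starvation relative to nitrogen starvation 1 (517 of 5584). Keeping zeros moved none of the 53 counts by over 1.5 times. At 1.5-fold, 31 of 45 counts moved by over 1.5 times. Genes higher were then 17 of 29 in peroxide (1171 of all 5469 genes), 11 of 29 at heat shock (1344 of 5197) and 4 of 26 on the mid-log strain array (343 of 5051). In snf1 cells 12 of 30 were higher without nitrogen (1722 of 6253) and 14 in 0.02% glucose (1067 of 6253). In nitrogen with glucose starvation 13 were higher (1573 of 6253). Genes lower were then 2 in peroxide (1210 of 5469), 2 at heat shock (1589 of 5197) and 4 in KCl (1533 of 5517). In 0.1% glucose 4 were lower (1993 of 6253), with rapamycin 3 (1239 of 5239) and on the mid-log strain array 3 (424 of 5051). In snf1 cells 5 were lower without nitrogen (1802 of 6253), 2 in 0.02% glucose (1304) and 4 in 0.1% glucose (1569). Nitrogen starvation with KCl gave 7 (2041 of 6253), nitrogen with glucose starvation 2 (2020) and rapamycin with glucose starvation 3 (1942). For nitrogen with glucose starvation, 5 were lower than in nitrogen starvation (1420 of 5584) and 13 lower than in 0.1% glucose (1254 of 6253). For glucose starvation with rapamycin, 5 were higher (877 of 5239) and 7 lower (999) than with rapamycin. Relative to 0.1% glucose 4 were higher (1419 of 6253) and 13 lower (1438). For nitrogen starvation with KCl, 7 were higher and 1 lower than in nitrogen starvation, and 5 higher and 10 lower than in KCl. By class, 1.5-fold gave 15 broad genes, 6 peroxide-led and 2 in peroxide alone. Requiring peroxide to lead by at least 1 gave 1, and broad at 3 of 6 arrays gave 13. Shares of all genes are not given for these class counts, or for nitrogen starvation with KCl relative to its single treatments. Those counts are therefore not read as results about the set. The causes were not tested, beyond the lower threshold itself letting more genes pass. With 1 array a condition and ratios kept for dim spots on 8 arrays, small differences between arrays are not resolved.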

Other observations

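Several genes of the wider pathway had values like those of MXR1, higher without nitrogen or amino acids than in the other single treatments (chosen after their values were seen, and with no test). OPT1, a transporter of oligopeptides and glutathione, was at 3.57 in amino acid starvation and 4.25 in nitrogen starvation, and between -1.31 and -0.08 on the other 5 single-treatment arrays. GSH1, the first enzyme of glutathione synthesis, was at 1.76 and 1.47 there, and POS5, the mitochondrial NADH kinase, at 2.28 and 1.64. Without nitrogen in snf1 cells, OPT1 was at 4.03, GSH1 at 1.53, POS5 at 1.73 and MXR1 at 2.70. With nitrogen and glucose both withdrawn, OPT1 was at -0.72, GSH1 at -0.14, POS5 at -0.10 and MXR1 at -0.34. That value of MXR1 lay within the range of the dim control spots (-2.10 to 2.68), and the part of dim signal was not tested. Nitrogen starvation with KCl gave 3.77 for OPT1, 1.70 for GSH1, 1.64 for POS5 and 2.51 for MXR1. These 4 genes were at least 2-fold higher on every array without nitrogen except the array that also lacked glucose. ATR1, a multidrug transporter gene, was at 3.21 in amino acid starvation and 1.54 in nitrogen starvation, but at 0.40 without nitrogen in snf1 cells and -0.57 in nitrogen starvation with KCl.

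GND2 was at -0.53 in snf1 cells without nitrogen, against 1.93 in wild-type cells, and at 3.26 in KCl and 2.55 in 0.1% glucose in snf1 cells, against 5.15 and 4.16 in wild-type cells (difference -1.99, SE 0.232, adjusted p = 0.0846 by limma, lower in 3 of 3 treatments). It was picked from the 3 genes of the wider list that were lower at an unadjusted threshold of 0.05. All 3 snf1 values lay within the ranges of the dim control spots (-3.39 to 0.98, -4.83 to 3.91 and -1.30 to 3.35). The wild-type value in 0.1% glucose lay above that range (-3.39 to 2.16). On the mid-log strain array GND2 was at 0.39. The parts of dim signal and starting level in the difference were not tested.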
